A study of Mus musculus with 16 samples.

Results

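Solute carriers are the membrane proteins that move ions, sugars, amino acids, vitamins, metals, organic anions and mitochondrial metabolites across cell membranes. Peaks of N4-acetylcytidine (ac4C) in their transcripts were examined in mouse liver. The members are all genes whose symbol begins with Slc or Slco followed by a digit and that have at least 1 peak in any of 8 deposited peak lists, with 1 gene of that name not reported here. They numbered 144 of the 8602 genes with a peak. Their 653 peaks, of 68356 in all, fell into 305 merged regions, of 25437. The series holds acetylated RNA immunoprecipitation sequencing of livers from db/db mice and from lean controls, 16 samples in all, with 4 immunoprecipitates and 4 inputs in each group. The db/db animals are male, carry db/db as their strain label and by genotype have no functional leptin receptor, which makes them a model of obesity with type 2 diabetes. The lean animals are male and carry C57BL/6 as their strain label. No age is given for either group, and both were kept specific pathogen free with free access to food and water. The values used were 4 peak lists of db/db livers, named db1, db2, db4 and db5, and 4 of lean livers, named C5 to C8.

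The acetyl group of ac4C is placed on cytidines by the enzyme NAT10, and in messenger RNA the mark has been linked to transcript stability and to translation. An antibody against ac4C pulls down short RNA fragments that carry it, and a peak is a stretch where the immunoprecipitate exceeds the background of the call. In liver, solute carriers take up bile acids, drugs, amino acids and zinc from blood and return metabolites to blood and bile, and those of the Slc25 family link the mitochondrial matrix to the cytosol.

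Many of the recurrent solute carrier peaks lay over an annotated transcription start, so annotated starts in 9 genes are shown, 4 from regions that recurred in both groups and 5 from regions that were unevenly called. Each line holds 40 bases before and 30 bases after the annotated start, read 5′ to 3′ on the strand of the gene, from the RefSeq promoter table of assembly GRCm38.p6. Capitals mark transcribed bases that lie inside the called region.
Slc44a1: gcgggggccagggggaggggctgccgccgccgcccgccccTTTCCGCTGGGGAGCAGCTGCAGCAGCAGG
Slc25a28: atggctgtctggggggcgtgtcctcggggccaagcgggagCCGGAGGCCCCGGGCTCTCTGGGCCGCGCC
Slc25a42: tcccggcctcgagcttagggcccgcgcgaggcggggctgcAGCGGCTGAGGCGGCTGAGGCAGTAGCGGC
Slc30a9: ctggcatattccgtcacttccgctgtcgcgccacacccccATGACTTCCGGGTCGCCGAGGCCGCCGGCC
Slc19a2: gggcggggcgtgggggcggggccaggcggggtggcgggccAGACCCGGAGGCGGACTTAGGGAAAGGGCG
Slc30a1: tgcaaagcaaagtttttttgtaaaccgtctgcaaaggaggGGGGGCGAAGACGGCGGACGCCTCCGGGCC
Slc30a10: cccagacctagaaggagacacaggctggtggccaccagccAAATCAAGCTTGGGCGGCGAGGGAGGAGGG
Slc25a33: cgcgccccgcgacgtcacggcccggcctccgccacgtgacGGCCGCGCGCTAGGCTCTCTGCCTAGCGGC
Slc3a2: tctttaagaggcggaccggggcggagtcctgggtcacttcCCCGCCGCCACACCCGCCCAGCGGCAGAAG

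The windows of Slc44a1 (chr4:53440373-53440442, plus strand), Slc25a28 (chr19:43674852-43674921, minus strand) and Slc25a42 (chr8:70212252-70212321, minus strand) belong to regions called in all 8 lists. That of Slc30a9 (chr5:67306915-67306984, plus strand) belongs to a region called in 3 db/db and 4 lean lists. The windows of Slc19a2 (chr1:164249006-164249075, plus strand) and Slc30a1 (chr1:191906741-191906810, plus strand) lie at regions with more db/db lists. Those of Slc30a10 (chr1:185454808-185454877, plus strand), Slc25a33 (chr4:149774238-149774307, minus strand) and Slc3a2 (chr19:8713868-8713937, minus strand) lie at regions with more lean lists. Among the 30 transcribed bases shown, cytidines numbered 8 in Slc44a1, 14 in Slc25a28, 7 in Slc25a42 and 12 in Slc30a9. They numbered 6 in Slc19a2, 10 in Slc30a1, 4 in Slc30a10, 12 in Slc25a33 and 16 in Slc3a2. The unevenly called starts thus included both the poorest and the richest in cytidine of the 9.

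All positions are on mm10, the build of the peaks. The lists give no read counts, so sequencing depth is unknown. Absence of a peak means that the authors' caller reported none, which depends on depth and on the amount of the transcript as well as on acetylation. In bulk liver, fewer cells of a type and less RNA per cell cannot be told apart. Folds are the authors' own ratios per peak and describe peaks within a list. The lists held 8212 to 9754 peaks in db/db livers and 7583 to 8503 in lean livers, and the 3 longest lists were of db/db livers. Of 12 hepatocyte marker symbols, 11 are in RefSeq, and only Hnf4a, Cps1 and Fgb had a peak in any list. None was found under the other 9, Alb among them, which says nothing for the symbol outside RefSeq. Peak lists do not measure expression, so the missing peaks do not bear on whether the tissue is liver. Hepatocyte markers with a peak averaged 1.5 ± 1 per db/db list and 0.25 ± 0.5 per lean list (SD, n = 4 each). In the same order, cholangiocyte markers averaged 3 ± 1.15 and 2.25 ± 0.5, and stellate markers 2.25 ± 0.957 and 1.75 ± 0.957. Kupffer markers averaged 1.25 ± 0.5 and 2 ± 0.816, and endothelial markers 2.5 ± 1 and 3.25 ± 0.957. Markers with a peak numbered 6 of 8 for cholangiocytes, 5 of 6 for endothelium, 4 of 6 for Kupffer cells and 5 of 6 for stellate cells, and the part of cell makeup in the results below was not tested.

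Solute carrier genes were called about as often in both groups. A peak was present in 67, 60, 62 and 48 of them in db1, db2, db4 and db5, against 61, 66, 54 and 43 in C5, C6, C7 and C8. The groups overlapped, with the highest count in db1 and the lowest in C8. The mean was 59.2 ± 8.06 genes in db/db and 56 ± 9.97 in lean lists (SD, n = 4 each), a difference of 3.25 genes that is smaller than either SD. Without C8 the difference was -1.08, without db1 it was 0.667, without C6 it was 6.58, without C5 it was 4.92 and without db5 it was 7. As a share of all genes with a peak, the members made up 1.27 ± 0.15% in db/db and 1.28 ± 0.177% in lean lists. All genes with a peak numbered 4671 ± 269 per db/db list and 4355 ± 234 per lean list.

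**Figure D1:**
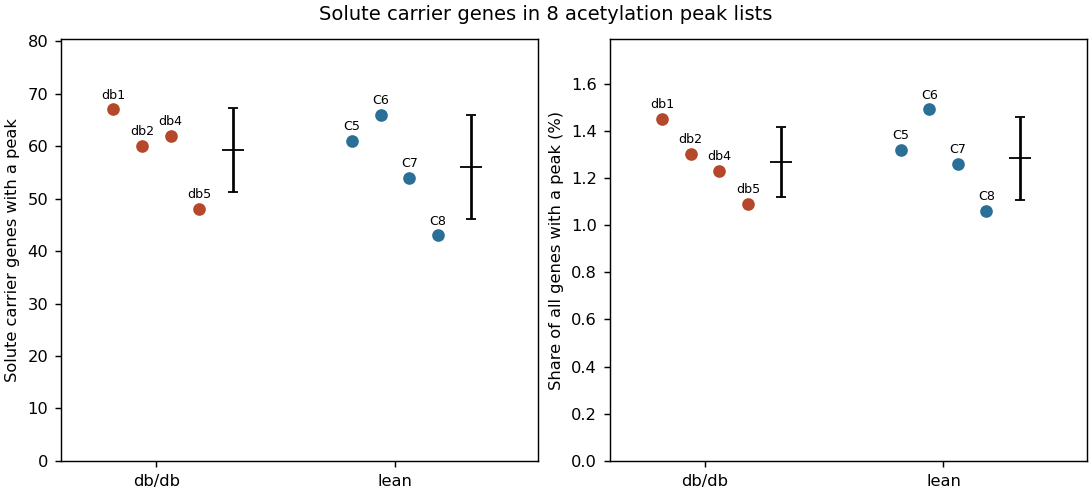
Solute carrier genes with a peak in each list (left, number of genes) and as a share of all genes with a peak in that list (right, percent). Points are lists, and the bars give the mean and SD of 4 lists; db/db and lean lists overlap on both scales, with means of 59.2 and 56 genes.

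Peaks in solute carrier genes numbered 106, 80, 96 and 57 in the db/db lists and 81, 85, 76 and 72 in the lean lists. The db/db lists spread more widely, at 84.8 ± 21.4 peaks against 78.5 ± 5.69 in lean lists (SD, n = 4 each). Their median fold was 3.95, beside 4.07 over all peaks, and their folds ran between 2.02 and 24.07. A fold of 4 or more was reached by 48.1% of solute carrier peaks and by 52% of all peaks. The authors' false discovery rate was 100% for every one of the 653 peaks, as it was for 99.2% of all peaks. Where a solute carrier gene was called, it held a mean of 1.42 peaks per list, beside 1.89 over all genes. More than 1 peak was found in 26.2% of their gene and list pairs, beside 43.7% over all genes. Slc4a4 had the most, with 10 peaks in db1.

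The share of solute carrier genes with a peak in every list is given beside that of all genes, as a description without a test. Of the 144 genes, 12 (8.33%) had a peak in all 8 lists, where 19.8% of all genes with a peak did. A peak in 1 list only was found for 46 genes (31.9%), where the share over all genes was 23.0%. The median was 3 lists per solute carrier gene and 4 over all genes. For 61 genes of ABC transporters and ion-pump ATPases, the other large groups of membrane transporters, 15 (24.6%) had a peak in all 8 lists and 13 (21.3%) in 1 list only. The difference between these sets was not tested, and transcript levels are not in the files. By RefSeq, 144 of 388 protein-coding solute carrier genes (37.1%) had a peak, close to the 36.2% of all protein-coding genes (7917 of 21900).

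**Figure D2:**
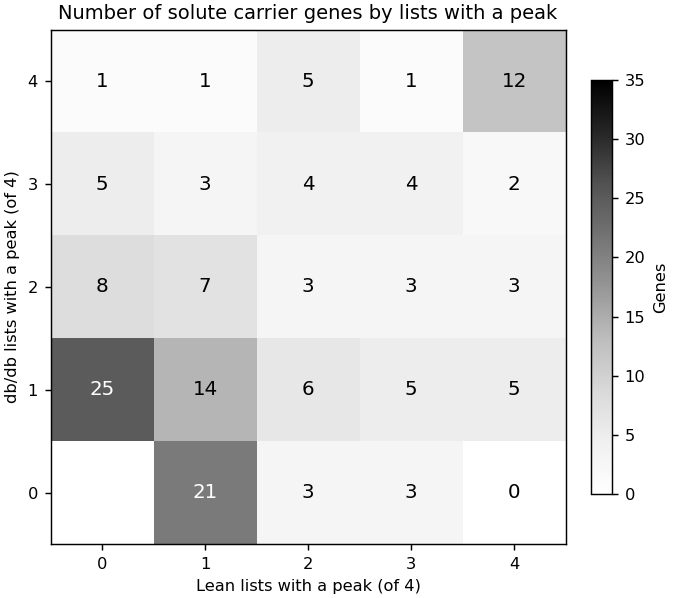
Number of solute carrier genes by the number of db/db lists (vertical axis) and lean lists (horizontal axis) that hold a peak of the gene. Shading gives the number of genes; 12 genes stand at 4 and 4, 1 at 4 db/db and 0 lean lists, and none at 0 db/db and 4 lean lists.

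Few solute carrier genes separated the groups. A peak was found in db/db lists only for 39 genes (27.1%, beside 21.6% of all genes) and in lean lists only for 27 (18.8%, beside 14.7%). Both groups held a peak for 78 genes (54.2%, beside 63.7%). More db/db than lean lists held a peak for 60 genes (41.7%, beside 38.2% over all genes), and more lean than db/db lists for 51 (35.4%, beside 30.1%). The median difference was 0 lists for solute carriers and 0 over all genes. Slc12a2 was the 1 member called in all 4 db/db lists and in no lean list, which is 0.694% of members beside 0.942% of all genes. No member was called in all 4 lean lists and in no db/db list, a pattern that 0.674% of all genes showed. A gene is called db/db-weighted here where 3 or 4 db/db lists but no more than 1 lean list held a peak, and lean-weighted in the opposite case. There were 10 db/db-weighted members (6.94%, beside 7.16% of all genes) and 13 lean-weighted members (9.03%, beside 5.03% of all genes). With a list left out, the db/db-weighted members numbered 3 (without db4 or db5) to 17 (without C6), and the lean-weighted members 6 (without C6) to 18 (without db1). Without db1, 4 members were in every db/db and no lean list, and 3 in every lean and no db/db list. Shares of all genes were not computed with a list left out, so these counts cannot be set against the shares above.

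By Fisher's exact test, two-sided, with Benjamini-Hochberg adjustment over all 8602 genes, none passed at 0.05 (the smallest adjusted p was 1). Unadjusted, 139 genes (1.62%) had an exact p under 0.05, and Slc12a2 was the 1 member among them. The smallest exact p that 4 lists against 4 can give is 0.0286. At 3 lists against 0, or 4 against 1, the exact p is 0.143, and at 3 against 1 it is 0.486. The uneven members below are therefore described by their values, and none of them passed the adjusted test. Nothing in the labels says that the samples are separate animals, so these p-values measure only the spread between lists.

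**Figure D3:**
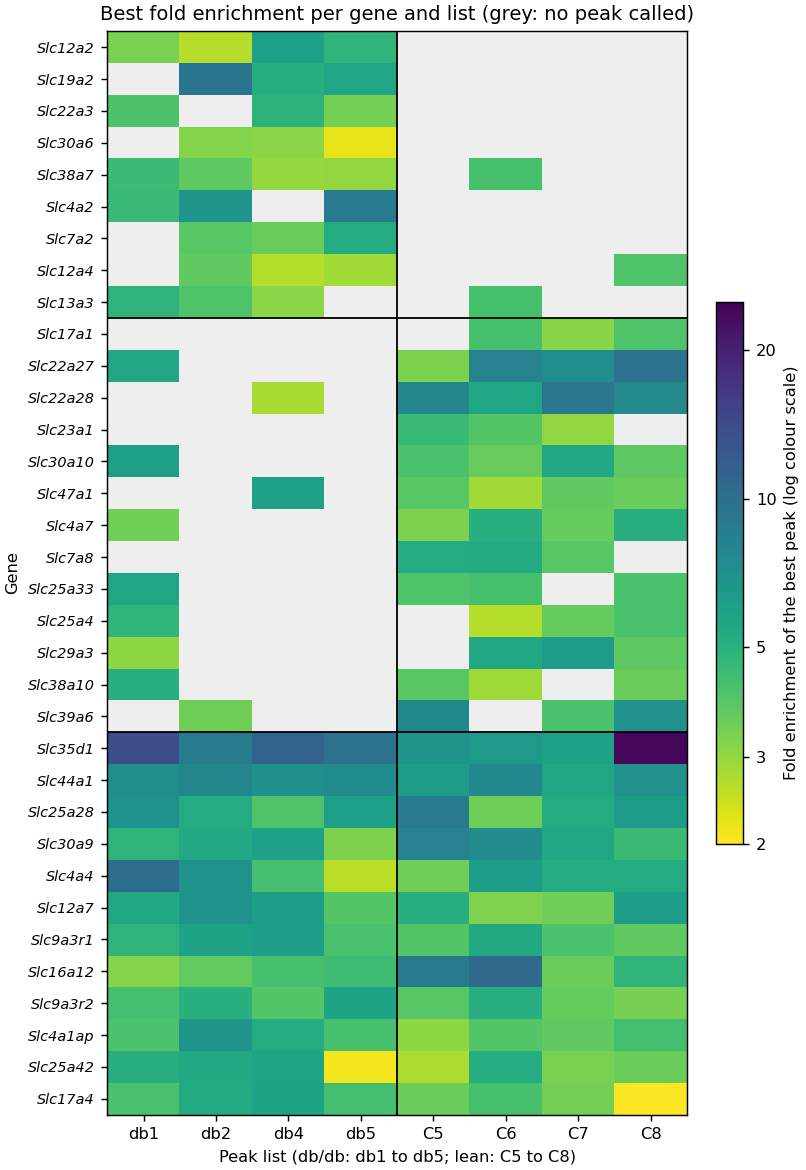
Fold enrichment of the best peak of each gene in each list, on a log colour scale, with grey where no peak was called; db/db lists stand left and lean lists right. The upper block holds 9 of the 10 db/db-weighted genes, the middle block the 13 lean-weighted genes and the lower block the 12 genes with a peak in all 8 lists.

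Transporters of inorganic ions held the most genes of the db/db-weighted pattern, 4 of 20, and 2 of the lean-weighted pattern. Of all genes 7.16% were db/db-weighted and 5.03% lean-weighted, and differences between classes were not tested. Per list, 11, 10, 9 and 8 of the 20 had a peak in db1, db2, db4 and db5, against 8, 9, 6 and 7 in C5, C6, C7 and C8. The means were 9.5 ± 1.29 in db/db and 7.5 ± 1.29 in lean lists (SD, n = 4 each), and the groups overlapped at 8 and 9 genes. Slc12a2 encodes NKCC1, the cotransporter that brings sodium, potassium and chloride into cells. The folds of its best peak were 3.32, 2.66, 5.95 and 4.82 in db1, db2, db4 and db5, and no lean list held a peak. Its peaks formed 2 regions within the gene (chr18:57878512-57946821), and neither was called in all 4 db/db lists (exact p = 0.0286 for the gene, adjusted p = 1). The region chr18:57878693-57879544 was called in db1, db4 and db5, and chr18:57898059-57898154 in db2, db4 and db5.

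The potassium-chloride cotransporters of the same family, which let these ions leave cells, were called differently from each other. Slc12a4 had a start peak (chr8:105965919-105966115) in db2, db4 and db5 at folds of 3.72, 2.64 and 2.85, and in C8 at 4.02. At a fold of at least 4 its direction turned, to 0 db/db lists and 1 lean list. Slc12a7 had a peak in all 8 lists, spread over 6 regions, with best folds of 3.94 to 6.82 in db/db and 3.25 to 6.06 in lean lists. Over the 5 Slc12 genes with a peak, gene and list pairs numbered 14 in db/db and 7 in lean lists. Over all genes such pairs numbered 18683 in db/db and 17420 in lean lists, and over the 144 members 237 and 224.

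Bicarbonate carriers fell on both sides. Slc4a2, an exchanger of chloride for bicarbonate, had a region (chr5:24423837-24424368) at folds of 4.58, 6.78 and 8.83 in db1, db2 and db5 and in no lean list. Slc4a7, a sodium bicarbonate cotransporter, went the other way and had a best fold of 3.41 in db1, against 3.29, 5.11, 3.62 and 5.09 in C5, C6, C7 and C8.

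No region of Slc4a7 was shared by all lean lists; chr14:14737369-14737507 was called in C5, C7 and C8, and chr14:14786292-14786423 in C6 and C8. Slc4a4, the electrogenic sodium bicarbonate cotransporter, had 37 peaks in 11 regions. Its region chr5:88886818-88887324, which holds an annotated start inside the gene (chr5:88793858-89239656), was called in all 8 lists, at folds of 2.34, 3.41, 2.59 and 2.61 in db/db and 3.45, 4.09, 3.37 and 3.96 in lean lists. The number of Slc4a4 peaks differed widely within a group, at 10, 4, 5 and 1 in db/db and 3, 4, 6 and 4 in lean lists.

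Among phosphate carriers of the Slc17 family, Slc17a1, which also carries urate, had a peak in no db/db list. Its region chr13:23867750-23868064 was called in C6, C7 and C8 at 4.18, 3.13 and 4.02. Its neighbour Slc17a4 had a peak in all 8 lists, with best folds of 4.12, 5.32, 5.77 and 4.26 in db/db and 3.57, 4.18, 3.38 and 2.02 in lean lists.

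**Figure D4:**
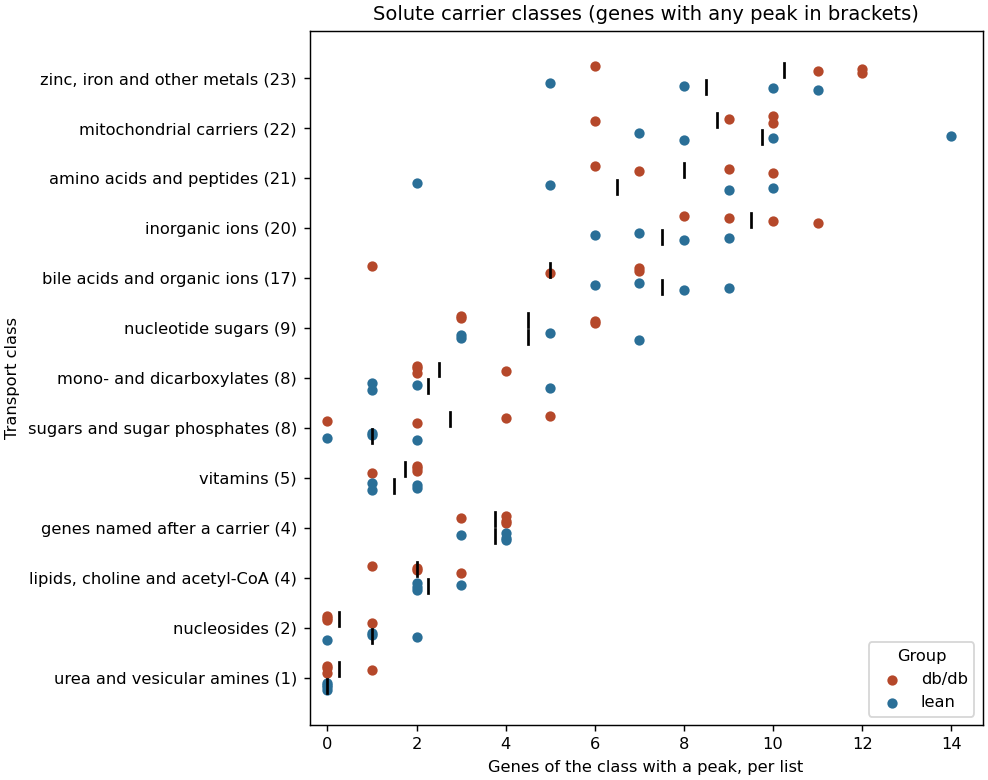
Solute carrier genes with a peak per list in each transport class, with the number of member genes in brackets after the class name; vertical bars are means of 4 lists, and db/db points lie above lean points. The groups overlap in every class, with means of 9.5 and 7.5 genes for inorganic ions and of 5 and 7.5 for bile acids and organic ions.

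Metal transporters formed the largest class, with 23 genes. The class had a peak in 12, 11, 12 and 6 genes in the db/db lists and 11, 10, 8 and 5 in the lean lists, or 10.2 ± 2.87 and 8.5 ± 2.65 (SD, n = 4 each). The low values were those of db5 and C8, the lists with the fewest member genes in their groups. Over the 8 Slc30 genes, most of which move zinc or manganese out of the cytosol, pairs of gene and list numbered 21 in db/db and 16 in lean lists. Over the 9 Slc39 genes, which bring zinc and related metals into the cytosol, they numbered 12 in db/db and 14 in lean lists. Over all genes they numbered 18683 in db/db and 17420 in lean lists.

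Slc30a1, the zinc exporter of the plasma membrane, had 1 region, over its start (chr1:191906767-191907613). Its folds were 5.84, 5.3, 7.02 and 5.85 in the db/db lists and 3.71 and 3.5 in C5 and C6, with no peak in C7 and C8. All db/db lists thus held the peak and the lean lists were divided, which missed even the unadjusted threshold (exact p = 0.429). The region overlaps the annotated gene 1700034H15Rik, whose reads cannot be separated from it here, and no peak of Slc30a1 lay outside other annotated genes. Slc30a6 and Slc30a7 move zinc into the secretory pathway. Slc30a6 had a region (chr17:74395612-74395668) at low folds of 2.66, 2.17 and 2.17 in db2, db4 and db5 and in no lean list. Another region of Slc30a6 (chr17:74401912-74401998) was called in db2 and db4 at 3.19 and 3.1 and in no lean list. Slc30a7 (chr3:115981762-115981812) had folds of 4.77, 5.32, 3.09 and 4.62 in the db/db lists and 3.02 and 2.89 in C6 and C7.

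Slc30a10, a manganese exporter, showed the opposite pattern. Its start region (chr1:185454848-185455679) was called in db1 at 3.49, and in C5, C6, C7 and C8 at 4.11, 3.58, 5.52 and 3.75. A second region 1466 bases downstream of the start (chr1:185456314-185456429) was called in db1 at 5.95 and in C5, C7 and C8 at 3.71, 4.1 and 2.68. The start region overlaps the annotated gene Gm2061, and outside other genes peaks remained in 1 db/db list and 3 lean lists. Slc30a9, linked to zinc handling in mitochondria, was called at its start (chr5:67306955-67307197) in both groups, at 4.82, 5.45 and 5.89 in db1, db2 and db4 and at 8.16, 7.37, 5.51 and 4.49 in C5 to C8.

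Among the importers, Slc39a6 had a region (chr18:24585126-24585503) at 3.46 in db2 and at 7.69, 4.1 and 6.96 in C5, C7 and C8. Slc39a11 had a peak in 2 db/db lists, at 3.2 and 3.73, and in all 4 lean lists, at 3.1, 3.72, 3.9 and 4.07. Slc39a8, which imports zinc and manganese, was singled out after its values were seen, because it held the highest member fold in C5 and C7. Its region chr3:135858701-135859778 was called in db1 at 4.77 and in C5, C6, C7 and C8 at 22.4, 10.28, 16.4 and 13.15. With its other regions the gene had a peak in 3 db/db and 4 lean lists, so the unevenness concerns that region and not the gene.

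Amino acid and peptide transporters numbered 21, with 2 genes in each of the uneven patterns and none called in all 8 lists. Over all genes 7.16% were db/db-weighted, 5.03% lean-weighted and 19.8% called in all 8 lists. The counts were 10, 7, 9 and 6 in the db/db lists and 9, 10, 5 and 2 in the lean lists, or 8 ± 1.83 and 6.5 ± 3.7 (SD, n = 4 each). Slc38a7, a lysosomal glutamine transporter, had a best fold of 4.43, 3.75, 2.97 and 3.02 in the 4 db/db lists and 4.18 in C6. The peaks of the gene lay in 4 different regions, and the most shared of them, chr8:95848381-95848768, was called in db2, db4 and C6. Slc7a2, a carrier of arginine and other cationic amino acids, had a single region (chr8:40902499-40902664) in db2, db4 and db5 at 3.84, 3.57 and 5.26 and in no lean list.

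Slc7a8, the large neutral amino acid transporter LAT2, had peaks in C5 and C6 at 5.27 and 5.34 (chr14:54781180-54781746) and in C7 at 3.86 (chr14:54723394-54724210). Slc7a8 thus had no region common to these lean lists, and no peak in any db/db list. Its partner Slc3a2, the CD98 heavy chain that carries several light chains to the cell surface, had 1 region (chr19:8713342-8713897), over an annotated start that lies inside the gene (chr19:8706882-8723369). The folds of Slc3a2 were 4.04 and 4.31 in db1 and db2, with no peak in db4 and db5, against 10.23, 11.06, 6.16 and 8.17 in C5, C6, C7 and C8. All lean lists thus held the peak and the db/db lists were divided (2 against 4 lists, exact p = 0.429). Slc3a1, the related heavy chain rBAT, was called in db1 and db2 at 6.47 and 4.57 and in no lean list.

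Slc38a10 had 6 peaks in db1, at a best fold of 5.06, and best folds of 3.87, 2.86 and 3.56 in C5, C6 and C8. Its 12 peaks lay in 8 regions, of which the most shared, chr11:120140593-120140686, was called in db1, C5 and C8. Its direction turned at a fold of at least 4, to 1 db/db list and 0 lean lists. Slc15a3, a lysosomal transporter of histidine and peptides, had best folds of 5.79, 3.99, 4.64 and 3.13 in the db/db lists and 5.57 and 5.3 in C6 and C7. The region that gave the folds of db1 and db4, chr19:10858393-10859672, lies beyond the bounds of Slc15a3 and overlaps Tmem132a. This region was also called in 1 lean list, where its peak was named for Tmem132a and so not counted for Slc15a3. Outside other genes Slc15a3 had a peak in 2 db/db and 2 lean lists, and at a score of at least 50 in 0 db/db and 2 lean lists.

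Transporters of bile acids, drugs and other organic ions numbered 17, with 1 gene of the db/db-weighted and 3 of the lean-weighted pattern. Over all genes these patterns made up 7.16% and 5.03%. The counts were 5, 7, 7 and 1 in db1, db2, db4 and db5, against 8, 9, 6 and 7 in C5, C6, C7 and C8, or 5 ± 2.83 and 7.5 ± 1.29 (SD, n = 4 each). The groups overlapped, and the lowest count was that of db5. Of the 17 genes, 10 had a peak in more lean than db/db lists and 5 in more db/db than lean lists. Of all genes with a peak, 30.1% had more lean and 38.2% more db/db lists.

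Slc22a27 and Slc22a28 are neighbouring members of the organic anion transporter branch of the Slc22 family. They are close in sequence, so the assignment of reads between them and their paralogs is uncertain. The region of Slc22a27 (chr19:7926369-7926808) was called in db1 at 5.55 and in C5, C6, C7 and C8 at 3.29, 8.13, 7.23 and 9.64. Slc22a28 had a region (chr19:8101370-8101493) that was called in all 4 lean lists, at 4.27, 5.59, 6.33 and 5.11, and in no db/db list. Its only db/db peak was in db4, at 2.79, elsewhere in the gene. Slc47a1, the MATE1 exporter of organic cations into bile, likewise had a region (chr11:61371756-61371824) called in all lean lists and no db/db list. Its folds there were 3.87, 2.83, 3.72 and 3.57 in C5 to C8, while db4 had a peak of the gene at 5.9 in another region. All lean folds are under 4, so at a fold of at least 4 its direction turned, to 1 db/db list and 0 lean lists.

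Slc22a3, a low-affinity organic cation transporter, was called in db1, db4 and db5 at best folds of 4.06, 4.87 and 3.38 and in no lean list. Its start region chr17:12506911-12507704 was called in db1 and db4, and the peak of db5 lay elsewhere. Slc22a15 was called in db2 and db4 at 3.95 and 3.07 and in no lean list. Of the organic anion transporting polypeptides, the 5 Slco genes with a peak had 6 pairs of gene and list in db/db and 11 in lean lists. Over all genes the pairs numbered 18683 in db/db and 17420 in lean lists. Slco2a1, the prostaglandin transporter, had best folds of 6.11 and 5.59 in db2 and db4 and of 4.15, 3.99, 6.43 and 4.82 in C5 to C8. Slco1a5 was called in C6 at 6.5 and C8 at 5.89 and in no db/db list.

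Mitochondrial carriers of the Slc25 family numbered 22, with no gene of the db/db-weighted and 2 of the lean-weighted pattern. Over all genes these patterns made up 7.16% and 5.03%. The counts were 10, 6, 9 and 10 in the db/db lists and 8, 10, 14 and 7 in the lean lists, or 8.75 ± 1.89 and 9.75 ± 3.1 (SD, n = 4 each). Slc25a33, which carries pyrimidine nucleotides, had its start region (chr4:149774000-149774277) called in C5, C6 and C8 at 4, 4.18 and 4.08 and in no db/db list. The peak of the gene in db1, at 5.63, lay in another region. Slc25a4, an exchanger of ADP for ATP, had best folds of 4.77 in db1 and of 2.64, 3.62 and 4.14 in C6, C7 and C8.

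The mitochondrial carriers called most steadily had their region at the start. Slc25a28, the iron importer mitoferrin 2, had a start region (chr19:43674476-43674881) in all 8 lists, at 6.93, 5.28, 3.99 and 6.03 in the db/db lists and 8.78, 3.48, 5.3 and 6.16 in the lean lists. Slc25a42, a carrier of coenzyme A, had a start region (chr8:70212228-70212305) in all 8, at 5.19, 5.43, 5.71 and 2.09 in the db/db and 2.72, 5.25, 3.34 and 3.53 in the lean lists. Slc25a32, a carrier of folate and flavin cofactors, was called in the 4 db/db lists at 3.04, 5.05, 5.9 and 5.54 and in C6 and C7 at 6.73 and 4.23. Slc25a16 was called in C6 and C7 at 5.78 and 5.32 and in no db/db list. Slc25a38, a glycine carrier needed for haem synthesis, was called in db1 and db4 at 2.74 and 3.87 and in no lean list.

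Nucleotide sugar transporters of the Golgi and endoplasmic reticulum held the highest solute carrier fold in 5 of the 8 lists, in Slc35d1 or Slc35b2. The 9 genes averaged 4.5 ± 1.73 per db/db list and 4.5 ± 1.91 per lean list (SD, n = 4 each). Slc35d1, which carries UDP-sugars into the endoplasmic reticulum, was called in all 8 lists. Its region close to a start (chr4:103214664-103215164) had folds of 5.59, 7.64, 5.08 and 4.84 in the db/db and 6.74, 6.44, 5.87 and 6.62 in the lean lists. This region also overlaps Gm46864, and outside other genes Slc35d1 had a peak in 4 db/db lists and 1 lean list. Its other region (chr4:103203084-103204148) was called in the 4 db/db lists at 13.67, 8.63, 11.17 and 9.67 and in 1 lean list, C8, at 24.07.

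Slc35b2 carries the sulphate donor PAPS into the Golgi. It had best folds of 10.03, 9.77, 12.89 and 10.76 in the db/db lists and of 10.22 and 12.79 in C5 and C8. C6 and C7 held no peak. The region chr17:45563964-45564773 gave the best folds of db1, db4 and db5, and had 7.52 and 7.35 in C5 and C8. Another region, chr17:45566309-45567669, gave those of db2, C5 and C8, so neither region was called in every db/db list. The mean within-list percentile of the best fold of Slc35b2 was 93.9, the highest among the genes named here. The gene was thus among the strongest wherever it was called, and missing in a pair of lean lists.

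The smaller classes held few uneven genes. Of 8 carriers of mono- and dicarboxylates, Slc13a3, which takes up succinate and other dicarboxylates with sodium, had best folds of 4.85, 3.99 and 3.1 in db1, db2 and db4 and 4.18 in C6. Its region in those 3 db/db lists (chr2:165448522-165448787) overlaps Gm14437, and outside other genes Slc13a3 had a peak in 2 db/db lists and 1 lean list. Slc16a12, a creatine transporter, had 1 region (chr19:34690644-34690891) in all 8 lists, at 3.16, 3.68, 4.17 and 4.37 in the db/db and 8.76, 10.43, 3.52 and 4.8 in the lean lists. The class averaged 2.5 ± 1 genes per db/db list and 2.25 ± 1.89 per lean list.

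Among 5 vitamin transporters, which averaged 1.75 ± 0.5 genes per db/db list and 1.5 ± 0.577 per lean list, one gene stood on each side. Slc19a2, a thiamine transporter, had a region that begins at its start (chr1:164249046-164249456) in db2, db4 and db5 at 9.38, 5.18 and 5.6 and in no lean list. Slc23a1, which takes up ascorbate, had a region (chr18:35627102-35627244) in C5, C6 and C7 at 4.52, 3.93 and 3 and in no db/db list.

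Carriers of sugars and sugar phosphates, 8 genes, averaged 2.75 ± 2.22 per db/db list and 1 ± 0.816 per lean list (SD, n = 4 each). The counts were 2, 0, 4 and 5 in the db/db lists and 2, 0, 1 and 1 in the lean lists, so a db/db and a lean list both had none. Slc2a9, a urate transporter of the glucose transporter family, was called in db4 and db5 at 4.32 and 3.47, and Slc45a4 in the same lists at 4.04 and 6.03; neither had a peak in a lean list. Of the 2 nucleoside transporters, Slc29a3, which acts in lysosomes, had a best fold of 3.07 in db1 and of 5.57, 6.27 and 3.75 in C6, C7 and C8. Its region chr10:60714280-60715204 was called in those 3 lean lists and in no db/db list.

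Carriers of lipids and choline, 4 genes, averaged 2 ± 0.816 per db/db list and 2.25 ± 0.5 per lean list. Slc44a1, a choline transporter, was the only member with 2 regions that were each called in all 8 lists. At a score of at least 50 it had a peak in 4 db/db and 3 lean lists. Its start region (chr4:53440413-53440716) had folds of 7.12, 7.85, 7.04 and 5.66 in the db/db and 6.16, 7.66, 4.34 and 6.96 in the lean lists. The region chr4:53481464-53481553 had folds of 5.27, 6.91, 6.83 and 7.3 in the db/db and 6.15, 6.73, 5.55 and 6.43 in the lean lists.

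The prefix also takes in 4 genes that are named after a carrier and encode no carrier. A peak in all 8 lists was found for 3 of them, beside 19.8% of all genes. Slc9a3r1 and Slc9a3r2 encode the NHERF scaffolds, which hold membrane transporters at the cell surface through PDZ domains. Slc9a3r1 had a region (chr11:115177224-115177377) in all 4 lean lists, at 3.2, 5.4, 3.54 and 3.69, and in no db/db list. Another of its regions, chr11:115176351-115176512, was called in the 4 db/db lists at 4.82, 4.76, 5.9 and 4.15 and in C5, C6 and C7 at 2.2, 3.57 and 3.94. The gene as a whole therefore did not separate the groups.

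Of the 3 regions of Slc9a3r2, 2 showed opposite patterns. The one at the far end of the gene (chr17:24639282-24640389) was called in all db/db lists, at 4.21, 4.94, 3.95 and 5.79, and in C6 at 5.19. The one at the start (chr17:24649938-24650305) was called in db1 and db2, at 3.6 and 5.05, and in C5 to C8 at 3.84, 3.25, 3.62 and 3.37. Slc4a1ap, which encodes kanadaptin, had best folds of 4.09, 6.7, 5.28 and 4.19 in the db/db and 3.07, 3.95, 3.7 and 4.29 in the lean lists.

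Counted by region instead of gene, the separation was as sparse. No solute carrier region was called in all 4 db/db lists and in no lean list, a pattern of 0.853% of all regions. The reverse was found for 3 of 305 regions (0.984%, beside 0.708% of all regions), those of Slc22a28, Slc47a1 and Slc9a3r1 given above. By the same definition, 13 regions were db/db-weighted (4.26%, beside 6.07%) and 17 were lean-weighted (5.57%, beside 4.81%). In all 8 lists 7 regions were called (2.3%, beside 6.21%), and in 1 list 167 regions (54.8%, beside 45.0%).

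Among the most recurrent solute carrier regions, most lay over a transcription start, given here as a description without a test. Strand and starts were known from the promoter table for 113 of the 144 genes, with 247 regions. An annotated start lay inside 45 of them (18.2%), in 44 genes, beside 2684 of 19999 regions of all genes (13.4%). For regions called in 1 list the share was 13 of 135 (9.63%), beside 7.64% over all genes. For those called in 2 to 5 lists it was 22 of 95 (23.2%), beside 15.4%. For those called in 6 to 8 lists it was 10 of 17 (58.8%), beside 25.8%. Wider regions are more likely to hold a start, and the median width of a solute carrier peak was 222 bp beside 183 bp over all peaks; the part of width was not tested. The last 10% of the gene held 17% of solute carrier regions, beside 14.3% of all regions.

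**Figure D5:**
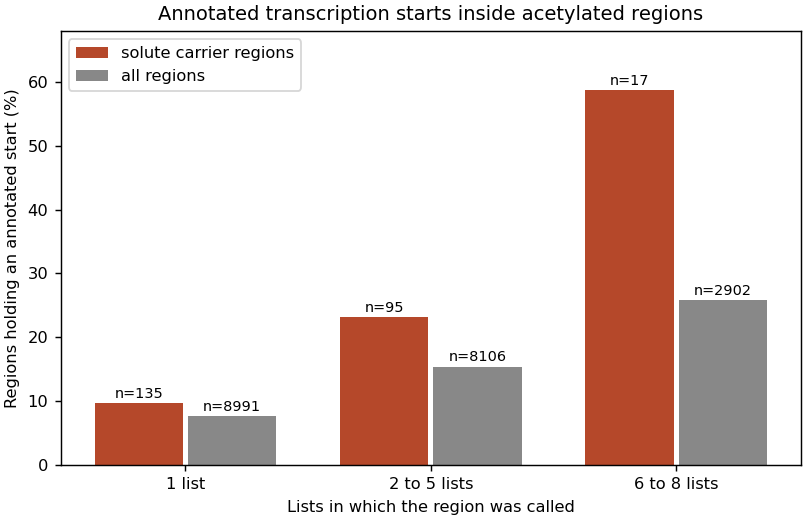
Share of regions that hold an annotated transcription start (percent), by the number of lists in which the region was called, for solute carrier regions and for regions of all genes with a known strand. The share is 9.63%, 23.2% and 58.8% for solute carriers and 7.64%, 15.4% and 25.8% for all regions; the number of regions stands over each bar.

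The bases just after these starts were as rich in cytidine as those of all genes with a start peak. In the first 50 transcribed bases, the median cytidine content was 30% over 47 solute carrier starts inside a region, 28% over 105 other starts of the members, and 30% over 2773 starts of all genes that lie inside a region. Over all 32851 starts in the table it was 26%. The letters CNNCNNCNNCNN, a run of the spaced cytidine pattern described around ac4C sites in human messenger RNA, were searched in the same bases. They were found on the transcript strand at 16 of the 47 starts (34%), beside 25.7%, 34.3% and 21.1% in the other 3 sets in that order. On the opposite strand they were found at 63.8% of the 47 starts, beside 37.1%, 52.9% and 29% in the same order. Of the 9 starts printed above, Slc44a1, Slc25a42, Slc30a9 and Slc3a2 hold the letters on the transcript strand. A match is a description of the sequence and not of a modified site.

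Other genes of the transport machinery were read from lists that were drawn up with earlier results of these data known. Of 32 carriers of the superfamily that bear other symbols, 31 are in RefSeq by the symbol used. A peak was found for 16 (36.2% of all protein-coding genes had one), with 4.25 ± 0.957 per db/db list and 6.75 ± 2.22 per lean list (SD, n = 4 each). More lean than db/db lists held a peak for 10 of these 16 and more db/db lists for 5, beside 30.1% and 38.2% of all genes with a peak. Mpc1, a subunit of the mitochondrial pyruvate carrier, had a peak in 1 db/db and 4 lean lists, and Tmem165, a Golgi protein needed for glycosylation, in 3 db/db and 1 lean list. Npc1, the lysosomal cholesterol exporter, had a peak in 2 db/db and 4 lean lists.

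Of 26 accessory subunits and regulators of solute carriers, 25 are in RefSeq by the symbol used. A peak was found for 17 (beside the same 36.2%), with 10.8 ± 1.71 per db/db list and 9.5 ± 1.73 per lean list. Of these, 5 had a peak in all 8 lists, as 19.8% of all genes with a peak did. They included Nedd4l, a ubiquitin ligase of membrane transporters, and Oxsr1, a kinase of the cation-chloride cotransporters. They also included Mtf1, the zinc-sensing transcription factor of the zinc exporter genes. The kinase Sgk2 and the transcription factors Hnf4a and Mlxipl were db/db-weighted, each with a peak in 3 db/db lists and 1 lean list (exact p = 0.486), a pattern of 7.16% of all genes.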

How the data were processed

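Per the submitters' processing notes, cutadapt 1.9.3, HISAT2 2.0.4 and the build mm10 were used. The peak identifiers in the deposited lists begin with MACS; its version, any pooling of samples and the control of the call are not given in the labels or headers. Each deposited row gives a score, equal to the column that the file headers call 10 times the negative log10 of p, a fold enrichment (a ratio) and a false discovery rate in percent. Peak widths were taken from the coordinates, and 8 deposited columns of peak length were not used. The lists name no sample, so they were mapped to groups, C being taken as the lean controls. Per the labels, the library kit keeps strand, but the lists give none.

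A gene counted once per list. Peaks of all lists were merged where they shared at least 1 bp, and starts are given 1-based. Members were matched to the RefSeq table (GRCm38.p6) by gene identifier, 144 of 144, and 98.6% of their peaks overlapped the bounds of their gene. Of all 68356 peaks, 2127 had a deposited start 1 below the start of their gene and 2193 ended at its end. Peak edges at gene bounds may thus follow the annotation, which was not tested. Exon and untranslated region annotation and the genome were not used here. Presence was tested with Fisher's exact test (scipy 1.17.1, pandas 2.3.3, numpy 2.4.6, Python 3.11.15), after a check on simulated data. The members, classes and lists were chosen with earlier results of these data known. Named are members with a peak or region in all lists of 1 group only, with a peak in 3 or more lists of 1 group but no more than 1 list of the other, and with a peak in all 8 lists (up to 12). From each class up to 3 more were named whose lists differed most, by at least 2. A few of the genes so chosen are not reported here. Alternatives used peaks with a fold of at least 4, a score of at least 50, a score at or above the pooled median, equal numbers of peaks, gene bounds, another merging overlap (50 bp) and each list left out.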

Additional observations from a re-analysis of the deposited data

Results flagged for a closer look

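Of 68 sets of 4 lists, 10 had a list far from the other 3 by Dixon's test. For measured values chance alone flags about 1 set in 20, a rate that does not hold for the 8 that are counts of genes, since a list that differs from 3 equal ones is always picked out. The best fold of Slc35d1 in C8, 24.07, stood apart from 5.87 to 6.74 in the other lean lists. It came from a region that no other lean list held (chr4:103203084-103204148). In the region that gave the other lean folds (chr4:103214664-103215164), C8 had 6.62. The best fold of Slc25a42 in db5, 2.09, stood apart from 5.19 to 5.71 in the other db/db lists. Metal transporters with a peak numbered 6 in db5, against 11 to 12 in the other db/db lists. In the db/db lists the counts of small classes that stood apart were 4 carboxylate carriers in db2 (2 in the others) and 1 vitamin transporter in db1 (2 in the others). Others were 1 nucleoside transporter in db1 (0 in the others), 1 vesicular amine carrier in db2 (0 in the others) and 3 genes named after a carrier in db4 (4 in the others). In the lean lists they were 3 carriers of lipids or choline in C7 (2 in the others) and 3 genes named after a carrier in C7 (4 in the others).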

How the results depend on the processing

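Few calls separate the groups here, and their numbers depend on the threshold of the peaks; depth is unknown, and the cause of these changes was not tested. Genes with a peak per list, db/db minus lean, differed by 3.25, and by 1.75 at a fold of at least 4, -0.25 at a score of at least 50, -0.75 above the median score (30.74 or more) and -2.75 with 7583 peaks from each list. All of these are smaller than the SD of the main counts; leaving out each list gave -1.08 (without C8) to 7 (without db5). Genes in all db/db and no lean list numbered 1, and 0 at the score of 50, above the median score and with equal peaks (1 to 4 with a list left out, 4 without db1 and 2 without db2, db4 or C6). At the fold of 4 the number was again 1, but the gene was Slc30a1 and no longer Slc12a2. There Slc30a1 had a peak in 4 db/db and 0 lean lists, and Slc12a2 in 2 db/db and 0 lean lists. Genes in all lean and no db/db list numbered 0, and 1 at the fold of 4, 3 at the score of 50, 2 above the median score and 1 with equal peaks (0 to 3 with a list left out, 3 without db1, 2 without db4 or C8 and 1 without C5). The db/db-weighted genes numbered 10, and 2 at the score of 50 and 2 above the median score. With a list left out they numbered 3 to 17: 6 without db1, 4 without db2, 3 without db4 or db5, 17 without C6 and 16 without C7. The lean-weighted genes numbered 13, and 5 at the fold of 4, 6 at the score of 50 and 5 above the median score. With a list left out they numbered 6 to 18: 8 without C5, 6 without C6 and 7 without C7 or C8. Since the requirement of 3 lists was kept, leaving out a list makes the pattern of its own group harder to meet and the other easier. Regions in all db/db and no lean list numbered 0, and 2 at the fold of 4 and 1 at the score of 50 (0 to 4 with a list left out, 4 without db1, 2 without db2 or db4 and 1 without db5, C6 or C8). Regions in all lean and no db/db list numbered 3, and 1 at the fold of 4 (3 to 6 with a list left out, 6 without db1 and 5 without C5 or C6). Shares over all genes or all regions were not computed under these alternatives, so the counts describe the members alone.

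Of the 10 db/db-weighted genes, Slc19a2 and Slc4a2 kept the pattern at a fold of at least 4 and none did at a score of at least 50. Of the 13 lean-weighted genes, Slc22a27, Slc22a28, Slc25a33 and Slc39a6 kept it at the fold and Slc22a27 and Slc22a28 at the score. Of 714 values of the 51 named genes under alternatives, 8 changed direction. As the share of lists with a peak, db/db minus lean in percentage points, these were at the fold of 4 Slc12a4 at -25, Slc38a10 at 25 and Slc47a1 at 25. At the score of 50 they were Slc15a3 at -50 and Slc38a10 at 25, and above the median score Slc15a3 at -50, Slc38a10 at 25 and Slc47a1 at 25. A change of direction was counted only where the sign of the difference turned. The 12 genes called in all 8 lists had no difference to turn, so they could not be counted. A fall to no difference was not counted either, so the count of 8 does not measure stability. Of these 12 genes, Slc17a4 and Slc4a1ap moved to 75 at the fold of 4, Slc25a42, Slc9a3r1 and Slc9a3r2 to 50 and Slc12a7 to 25. Slc16a12 and Slc30a9 moved to -25, and the others stayed without a difference. Only Slc35d1 and Slc44a1 kept a peak in all 8 lists at the fold of 4, and only Slc35d1 at the score of 50. Taking only peaks outside every other RefSeq gene, an alternative chosen after seeing the data, gave a difference of 3 genes. It left 9 of the 10 db/db-weighted genes, without Slc13a3, and Slc35d1 joined them; all 13 lean-weighted genes stayed, and 11 of 12 genes remained in all 8 lists, without Slc35d1. Slc30a1 had no peak left. Taking only peaks inside the bounds of their gene gave a difference of 2.75 genes and the same other counts, and merging from 50 shared bp gave the same counts of regions. No paired analysis was possible because the lists carry no sample numbers that are shared between the groups.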

Other observations

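In all, 244 of 388 protein-coding solute carrier genes had no peak in any of the 8 lists. The examples here were picked from those without a peak, so they show nothing about abundant carriers as a group. They include Slc10a1, the sodium-dependent bile acid importer, Slco1b2, an organic anion importer, and Slc40a1, the iron exporter. They also include Slc27a2 and Slc27a5, which activate fatty acids and bile acids, Slc25a13, Slc25a15, Slc25a20 and Slc25a5 of the mitochondrial family, Slc37a4 and Slc38a3. Transcript levels in these livers are not in the files.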
